A study of Mus musculus with 8 samples.

Results

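The Myc and Max network was described here through the mRNA of its 9 members that the array's gene names hold: Myc, Mycn, Max, Mxd1, Mxd3, Mxd4, Mxi1, Mnt and Mlx. Every probe named for one of them was taken, with the older names Mad, Mad3 and Mad4 read as Mxd1, Mxd3 and Mxd4, which gave 17 probes of 41174. All 17 were among the 21126 probes kept by the filter on dim probes. Of these 17 probes, 15 were well above background on all 8 arrays, the dimmer Mlx probe on 7 and the dimmest Mxd4 probe on 3.

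The cells were Ba/F3, a mouse pro-B cell line that needs IL3 to grow, made to express FLT3, a receptor tyrosine kinase of blood progenitors. The 4 groups of 2 arrays were FLT3/ITD cells with Cxcl12, FLT3/ITD cells without it, wild type FLT3 cells with Cxcl12 and wild type FLT3 cells without it. An ITD is an internal tandem duplication, which switches FLT3 on without its ligand, and Cxcl12 is the chemokine that binds Cxcr4. All cells had been grown in serum with 0.1 ng/ml IL3, were washed, and were then kept for 4 h in RPMI with 0.5% BSA, to which 100 ng/ml Cxcl12 was added or not. The labels name no IL3 in this medium. The arrays came on 2 slides, called set 1 and set 2, each with 1 array per group. Set 1 used ITD cells labelled N51 and set 2 those labelled N78, so the kind of ITD and the slide cannot be told apart. Each group also lay at the same position on both slides, so group and position cannot be told apart. The sources used here do not say how FLT3 was introduced, whether the lines were single clones, or whether the 2 arrays of a group came from separate cultures. The p-values below therefore measure the spread between these arrays, which may be technical.

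MYC and MYCN are transcription factors that bind DNA as pairs with MAX, mostly at the E-box CACGTG, and raise the expression of genes for ribosome building, nucleotide and polyamine synthesis and cell growth. The MXD proteins (MXD1, MXD3, MXD4 and MXI1) and MNT also pair with MAX, bind the same sites and recruit SIN3 and histone deacetylases, which lowers expression there. MLX is a MAX-like partner that pairs with the glucose sensors MLXIP and MLXIPL, and also with MNT and some MXD proteins. Myc mRNA is short-lived in blood cells and depends on growth factor signals.

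FLT3/ITD cells had more Mycn mRNA and less Mxd1 and Mxd4 mRNA than wild type FLT3 cells, averaged over cells with and without Cxcl12 (4 arrays against 4). Cells given Cxcl12 had more Myc mRNA than cells without it. A gene passed at a limma adjusted p (Benjamini-Hochberg over 13848 genes) under 0.05. In the average ITD effect 3 of 9 members passed, 1 higher and 2 lower, where 6.14% of all genes passed. In the average Cxcl12 effect 1 of 9 passed, and it was higher, where 0.383% of all genes passed and 0.152% were higher. These calls were not equally firm. Under 9 other ways of processing, Mycn passed with ITD in 8, Mxd4 in 5 and Mxd1 in 3, and Myc passed with Cxcl12 in 4. The other Mxd1 probe differed by only -0.03 with ITD. The median member difference was -0.16 for ITD, against -0.01 over all genes, and 0.07 for Cxcl12, against 0.01 over all genes.

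Levels are log2 intensities minus the 75th percentile of their array, so 0 is the level of that percentile, and a difference of 1 is 2-fold. Levels of different probes are not set against each other, since a probe's brightness depends on its sequence. Between 49.2% and 55.0% of spots were well above background per array. Of 11 pro-B cell markers, 5 were well above background on all 8 arrays, while Igll1, Pax5, Ebf1, Rag1 and Il7r were not above it on any. The summed level of 8 mast cell and basophil markers (1 is the array's 75th percentile) lay between 45.1 and 135.3 on the FLT3/ITD arrays and between 204 and 358 on the wild type FLT3 arrays, with Kit above background on none. This sum mostly follows its brightest markers. Of the 8 markers 7 were measured, and 2 of these passed as lower in the average ITD effect, where 2.57% of all genes did. None of the 7 had an average difference above 0. Within a slide not every marker was lower: in set 1 without Cxcl12, Cpa3 was -0.09 in FLT3/ITD cells against -0.95 in wild type FLT3 cells. The part of these markers in the results was not tested. In RNA from whole cultures, fewer cells of a type and less RNA per cell cannot be told apart.

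**Figure D1:**
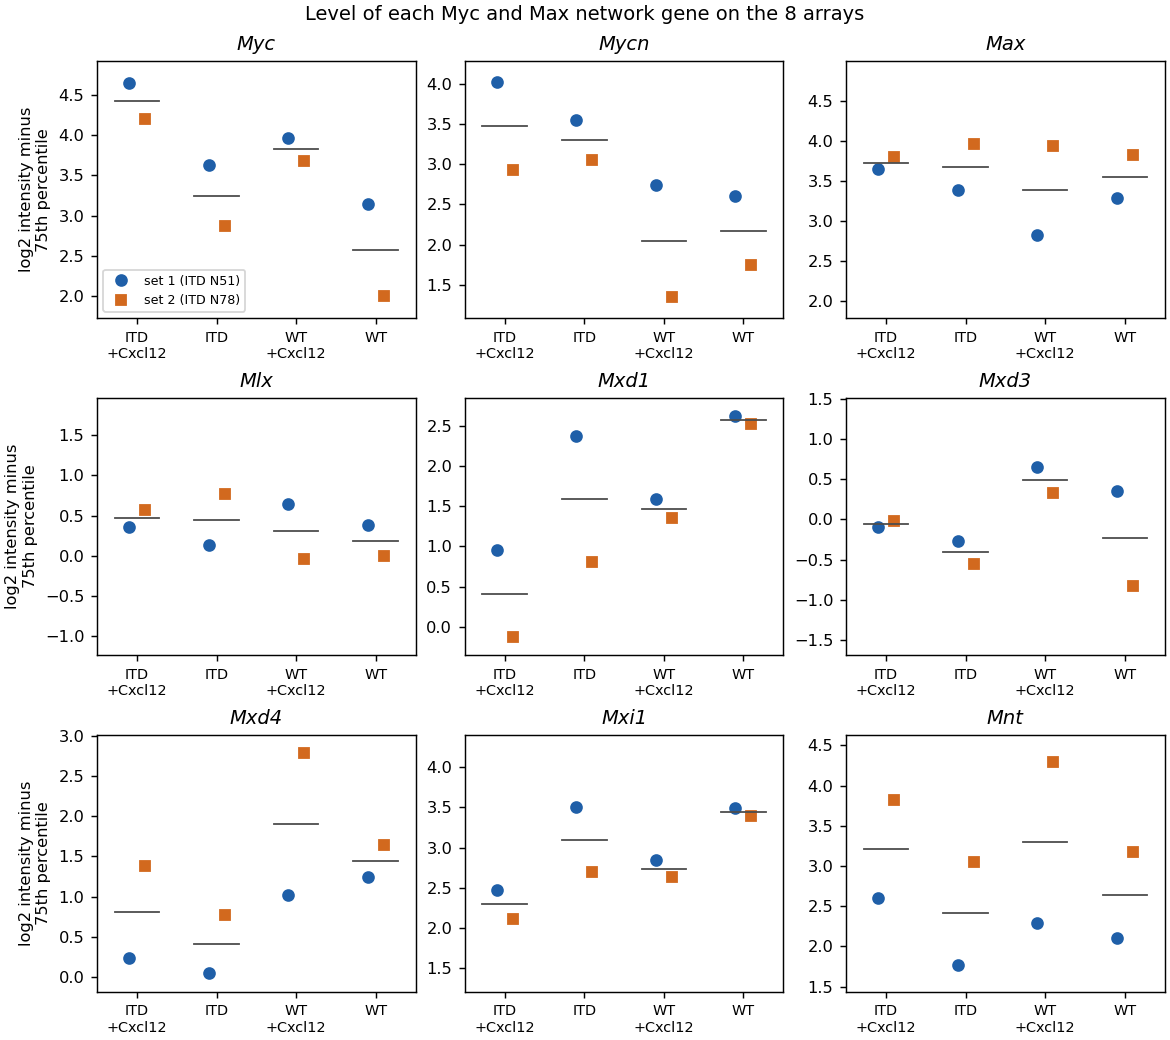
Levels of the 9 members on the 8 arrays (log2 intensity minus the array's 75th percentile), by group, with circles for set 1, squares for set 2 and a line at the mean of both. Every panel spans the same number of log2 units. Myc is higher on both Cxcl12 groups than on the groups without it, and Mycn is higher on both FLT3/ITD groups than on the wild type FLT3 groups.

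Myc (NM_010849) was read by 3 probes, and the brightest, on chromosome 15 from 61821516 to 61821576 on the plus strand (mm9), stood for the gene. In set 1 it had a level of 4.65 in FLT3/ITD cells with Cxcl12 and 3.63 without, and of 3.97 in wild type FLT3 cells with Cxcl12 and 3.15 without. In set 2 the levels were 4.20 in FLT3/ITD cells with Cxcl12 and 2.87 without, and 3.68 in wild type FLT3 cells with Cxcl12 and 2.0 without. All 4 Cxcl12 arrays lay above all 4 arrays without Cxcl12, a pattern that 1.41% of all genes had in this direction. Myc rose with Cxcl12 by 1.22 (SE 0.17, limma adjusted p = 0.0354, 95% interval 0.83 to 1.61), a fold of 2.32. The difference was 0.92 in set 1 and 1.51 in set 2. It was 1.18 in FLT3/ITD cells (adjusted p = 0.297) and 1.25 in wild type FLT3 cells (adjusted p = 0.213), neither of which passed. The difference between these responses was -0.08 (95% interval -0.86 to 0.70, adjusted p = 1.0).

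The order of the Myc levels was the same on both slides. FLT3/ITD cells with Cxcl12 were highest at 4.42 ± 0.31, followed by wild type FLT3 cells with Cxcl12 at 3.83 ± 0.20, FLT3/ITD cells without it at 3.25 ± 0.54 and wild type FLT3 cells without it at 2.57 ± 0.81 (SD, n = 2 each). The average ITD difference of Myc was 0.64 (SE 0.17, limma adjusted p = 0.0617) and did not pass. It was 0.58 in set 1 and 0.69 in set 2, and all 4 differences within a slide were above 0, as they were for 16.4% of all genes. The average ITD difference of Myc passed under 1 of 9 other ways of processing, the authors' normalized tables (0.76, limma adjusted p = 0.0408). Those tables also moved the median ITD difference of all genes to 0.12, against -0.01. Leaving out 1 array gave Myc differences of 0.47 to 0.80. The ITD difference was 0.60 with Cxcl12 (adjusted p = 0.242) and 0.67 without it (adjusted p = 0.340), so neighbours in the order at the same Cxcl12 dose did not differ past the threshold.

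The other Myc probes gave differences of the same sign. The one from 61821417 to 61821476 differed by 1.07 with Cxcl12 (limma adjusted p over all kept probes 0.0633), and the one from 61820925 to 61820984 by 0.93 (adjusted p = 0.0974). Their ITD differences were 0.62 (adjusted p = 0.0753) and 0.69 (adjusted p = 0.0799). None of these passed, and 0.213% of all kept probes did in the average Cxcl12 effect and 6.02% in the average ITD effect. The Myc call with Cxcl12 was lost when the mean of the 3 probes was used (1.07, adjusted p = 0.0604), with normexp background correction (0.86, adjusted p = 0.808), with no filter on dim probes (adjusted p = 0.154) and with no intensity trend (adjusted p = 0.0863). It was also lost when 1 of 6 of the 8 arrays was left out (differences of 1.05 to 1.38 over all 8, highest adjusted p = 0.236), and held without FLT3/ITD+Cxcl12 replicate 2 or wild type FLT3 replicate 1.

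Because MYC and MYCN are related proteins, their probes are shown to let the letters be compared. The closest pair of probes, both shown 5′ to 3′ with the longest run of bases they share in capitals, has 8 of 60 bases in 1 run, and the other 5 pairs share runs of 5 or 6 bases.
Myc probe: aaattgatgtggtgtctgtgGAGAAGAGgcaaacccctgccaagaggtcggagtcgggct
Mycn probe: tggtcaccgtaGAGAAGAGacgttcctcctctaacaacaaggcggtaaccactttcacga
The Myc probe lies at chr15:61820925-61820984 on the plus strand and the Mycn probe at chr12:12944312-12944371 on the minus strand (both mm9). Where the probes lie in their transcripts was not compared, and whether a probe could also read the other gene's mRNA was not tested.

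Mycn (NM_008709), the paralogue first found amplified in neuroblastoma, was read by 2 probes. The brighter one, on chromosome 12 from 12943193 to 12943252 on the minus strand (mm9), stood for the gene. In set 1 its levels were 4.02 in FLT3/ITD cells with Cxcl12, against 2.74 in wild type FLT3 cells with Cxcl12, and 3.55 against 2.61 without Cxcl12. In set 2 they were 2.93 in FLT3/ITD cells with Cxcl12, against 1.35 in wild type FLT3 cells with Cxcl12, and 3.06 against 1.74 without it. All 4 FLT3/ITD arrays lay above all 4 wild type FLT3 arrays, as for 3.24% of all genes. Mycn rose in FLT3/ITD cells by 1.28 (SE 0.18, limma adjusted p = 0.00653, 95% interval 0.88 to 1.68), a fold of 2.43. The difference was 1.11 in set 1 with N51 and 1.45 in set 2 with N78.

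With Cxcl12 present, Mycn also rose in FLT3/ITD cells by 1.43 (SE 0.25, limma adjusted p = 0.0430), the single member of 9 to pass there, where 0.838% of all genes passed. That call was lost without any 1 of the 4 arrays with Cxcl12 (differences of 1.14 to 1.71, highest adjusted p = 0.407). Without Cxcl12 the difference was 1.13 (adjusted p = 0.113), and by limma 0 of 9 members passed there, where 0.505% of all genes passed, and 4 of 9 had an unadjusted p under 0.05, as did 12.3% of all genes. The dimmer Mycn probe, the one shown above, rose by 1.21 in FLT3/ITD cells (limma adjusted p over all kept probes 0.0236; 0.87 in set 1 and 1.55 in set 2). Mycn showed no Cxcl12 difference that passed: it was 0.02 (95% interval -0.38 to 0.42, limma adjusted p = 0.974), with 0.30 in set 1 and -0.26 in set 2. The sign of this small value changed with the processing, as given in the closing section. Of the members, Mycn alone kept its ITD call in each of the 8 fits that left out 1 array (differences of 1.12 to 1.43, highest adjusted p = 0.0478).

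Max (NM_008558), the shared partner, had 1 probe, on chromosome 12 from 78038283 to 78038342 on the minus strand (mm9). Its levels were 3.64 in set 1 and 3.79 in set 2 in FLT3/ITD cells with Cxcl12, and 3.39 and 3.96 in FLT3/ITD cells without it. In wild type FLT3 cells they were 2.82 and 3.94 with Cxcl12, and 3.28 and 3.82 without it. The groups overlapped in both comparisons. Max differed by 0.23 with ITD (95% interval -0.17 to 0.63, limma adjusted p = 0.439) and by -0.06 with Cxcl12 (95% interval -0.46 to 0.33, adjusted p = 0.908).

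Mlx (NM_011550) had 2 probes, and the brighter one, on chromosome 11 from 100952426 to 100952485 on the plus strand (mm9), stood for the gene. Its levels lay between 0.14 and 0.77 on the FLT3/ITD arrays and between -0.04 and 0.65 on the wild type FLT3 arrays. The ITD difference was 0.21 (95% interval -0.30 to 0.72, limma adjusted p = 0.588) and had opposite signs in the sets, -0.27 in set 1 and 0.69 in set 2. The Cxcl12 difference was 0.07 (95% interval -0.45 to 0.58, adjusted p = 0.926). The dimmer Mlx probe ranged from -5.54 to -2.54 and was not well above background in wild type FLT3 cells with Cxcl12 in set 2. It differed by 1.27 with ITD (SE 0.54, limma adjusted p over all kept probes 0.175), which did not pass.

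All 4 MXD members had ITD differences below 0 on the probes that stood for them, and Mxd1 and Mxd4 passed. Mxd1 (NM_010751), the founding MXD protein, which rises in many blood cells as they mature, was read on chromosome 6 from 86597190 to 86597249 on the minus strand (mm9). In set 1 it had a level of 0.95 in FLT3/ITD cells with Cxcl12, against 1.59 in wild type FLT3 cells with Cxcl12, and 2.37 against 2.62 without it. In set 2 it had -0.12 in FLT3/ITD cells with Cxcl12, against 1.35 in wild type FLT3 cells with Cxcl12, and 0.81 against 2.52 without it. All 4 differences within a slide were below 0, as for 17.4% of all genes, though the arrays overlapped across slides. Mxd1 fell in FLT3/ITD cells by 1.02 (SE 0.25, limma adjusted p = 0.0472, 95% interval -1.58 to -0.46), with -0.44 in set 1 and -1.59 in set 2.

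Mxd1 was also lower with Cxcl12 by a like amount without passing, at -1.14 (SE 0.25, limma adjusted p = 0.0890, 95% interval -1.70 to -0.58). The difference was -1.23 in set 1 and -1.05 in set 2, and -1.18 in FLT3/ITD cells (adjusted p = 0.365) and -1.10 in wild type FLT3 cells (adjusted p = 0.515). All 4 differences within a slide were below 0, as for 13.8% of all genes. The Cxcl12 difference passed with normexp background correction (-1.33, adjusted p = 0.00549) and with the authors' normalized tables (-1.12, adjusted p = 0.0425). Mxd1's second probe, from 86600751 to 86600810, was dimmer, with levels of -4.26 to -2.51, and disagreed on ITD: it differed by -0.03 with ITD (limma adjusted p over all kept probes 0.953) and by -0.41 with Cxcl12 (adjusted p = 0.513). The ITD call was lost with the mean of both probes (-0.53, adjusted p = 0.163), normexp background correction (-0.74, adjusted p = 0.206), quantile normalization (adjusted p = 0.0674), no filter on dim probes (adjusted p = 0.133) and no intensity trend (adjusted p = 0.0850). It also failed to pass without any 1 of 6 of the 8 arrays (differences of -1.29 to -0.74 over all 8, highest adjusted p = 0.220), passing only without FLT3/ITD replicate 1 or wild type FLT3 replicate 1.

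Mxd4 was read by 3 probes, of which the brightest, on chromosome 5 from 34516836 to 34516895 on the minus strand (mm9), stood for the gene. In set 1 it had a level of 0.23 in FLT3/ITD cells with Cxcl12, against 1.02 in wild type FLT3 cells with Cxcl12, and 0.04 against 1.24 without it. In set 2 it had 1.38 in FLT3/ITD cells with Cxcl12, against 2.79 in wild type FLT3 cells with Cxcl12, and 0.78 against 1.64 without it. Set 2 was higher than set 1 in every group, and all 4 ITD differences within a slide were below 0, as for 17.4% of all genes. Mxd4 fell in FLT3/ITD cells by 1.06 (SE 0.22, limma adjusted p = 0.0314, 95% interval -1.57 to -0.56), with -0.99 in set 1 and -1.14 in set 2. Its Cxcl12 difference was 0.43 (adjusted p = 0.417), with -0.02 in set 1 and 0.87 in set 2.

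The other Mxd4 probes had the same sign with ITD and did not pass. The one from 34520307 to 34520366, above background on all 8 arrays, differed by -0.38 (limma adjusted p over all kept probes 0.277), and the one from 34523656 to 34523715, above background on 3 wild type FLT3 arrays and on no FLT3/ITD array, by -0.87 (adjusted p = 0.105). This last probe was kept only because it was above background in wild type FLT3 cells, so its difference is no separate support. With the mean of the kept probes, which includes it, the Mxd4 difference was -0.77 (limma adjusted p = 0.0497). The call was lost with normexp background correction (-0.66, adjusted p = 0.225), no filter on dim probes (adjusted p = 0.0943) and no intensity trend (adjusted p = 0.0620). Leaving out 1 array gave differences of -1.32 to -0.81, and 3 of these 8 fits passed: those without FLT3/ITD replicate 1, wild type FLT3+Cxcl12 replicate 1 or wild type FLT3 replicate 2 (highest adjusted p over the 8 = 0.168).

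**Figure D2:**
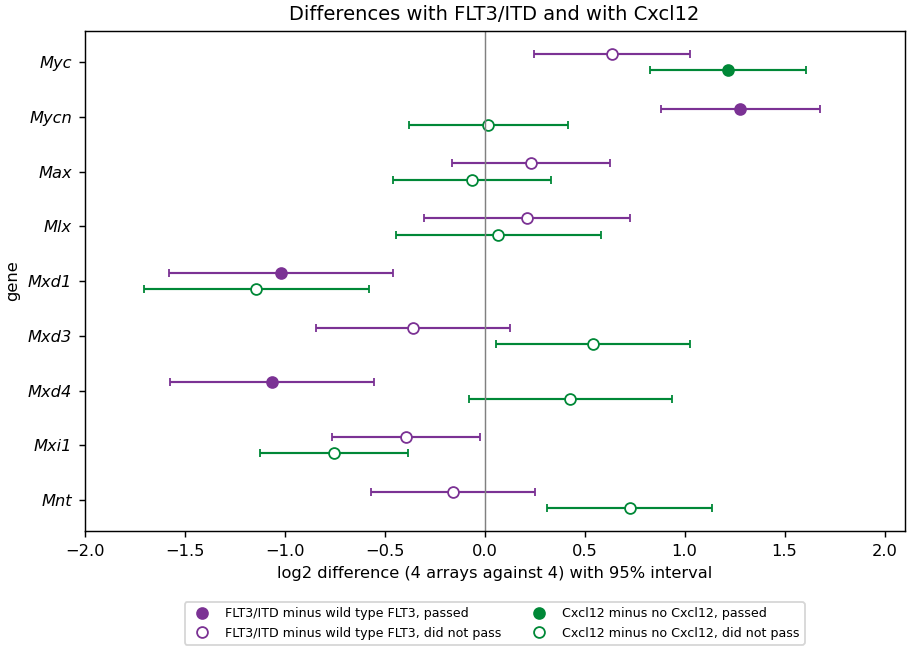
Log2 differences of the 9 members with ITD (FLT3/ITD minus wild type FLT3) and with Cxcl12 (with minus without), each 4 arrays against 4, with 95% intervals; filled points passed the test. Mycn at 1.28, Mxd1 at -1.02 and Mxd4 at -1.06 passed for ITD, and Myc at 1.22 for Cxcl12.

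Mxi1 (NM_001008542), also known as Mxd2, had 1 probe, on chromosome 19 from 53446996 to 53447055 on the plus strand (mm9). In set 1 its levels were 2.48 in FLT3/ITD cells with Cxcl12 and 3.51 without, and 2.84 in wild type FLT3 cells with Cxcl12 and 3.49 without. In set 2 they were 2.11 in FLT3/ITD cells with Cxcl12 and 2.69 without, and 2.63 in wild type FLT3 cells with Cxcl12 and 3.39 without. Within each slide and each kind of cell the Cxcl12 array was the lower one, as for 13.8% of all genes. The Cxcl12 difference was -0.75 (SE 0.16, limma adjusted p = 0.0890, 95% interval -1.12 to -0.38), which did not pass, with -0.84 in set 1 and -0.67 in set 2. It was -0.81 in FLT3/ITD cells (adjusted p = 0.365) and -0.70 in wild type FLT3 cells (adjusted p = 0.535). The ITD difference was -0.39 (adjusted p = 0.169).

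Mxd3 (NM_016662), the MXD protein known to be made in cycling cells, was read on chromosome 13 from 55427253 to 55427426 on the minus strand (mm9). Its levels lay between -0.55 and -0.02 on the FLT3/ITD arrays and between -0.83 and 0.65 on the wild type FLT3 arrays. The ITD difference was -0.36 (limma adjusted p = 0.325) and the Cxcl12 difference 0.54 (adjusted p = 0.285, 0.24 in set 1 and 0.85 in set 2). Its second probe differed by -0.63 with ITD (adjusted p over all kept probes 0.141) and by 0.43 with Cxcl12 (adjusted p = 0.449).

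Mnt (NM_010813), a MAX partner that lowers MYC targets in resting and cycling cells, was read on chromosome 11 from 74658915 to 74658974 on the plus strand (mm9). In set 1 its levels were 2.60 in FLT3/ITD cells with Cxcl12 and 1.77 without, and 2.29 in wild type FLT3 cells with Cxcl12 and 2.11 without. In set 2 they were 3.82 in FLT3/ITD cells with Cxcl12 and 3.05 without, and 4.30 in wild type FLT3 cells with Cxcl12 and 3.18 without. Set 2 exceeded set 1 in every group, and within each slide the Cxcl12 array was the higher one in both kinds of cell, as for 15.5% of all genes. The Cxcl12 difference of 0.73 (SE 0.18, 95% interval 0.31 to 1.14) did not pass (limma adjusted p = 0.120), nor did the ITD difference of -0.16 (adjusted p = 0.618).

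With Cxcl12 the differences of Mxd1 and Mxi1 were below 0 and those of Mxd3, Mxd4 and Mnt above 0, none of them past the test. With Cxcl12 in wild type FLT3 cells limma passed 0 of 9 members, where 0.065% of all genes passed. There 5 of 9 had an unadjusted p under 0.05, as did 7.15% of all genes. In FLT3/ITD cells limma passed 0 of 9 members and 0% of all genes, with 4 of 9 members and 10.4% of all genes at an unadjusted p under 0.05. For the difference between the 2 kinds of cell in the response to Cxcl12 limma passed 0 of 9 members and 0% of all genes, with 0 of 9 members and 1.7% of all genes at an unadjusted p under 0.05.

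**Figure D3:**
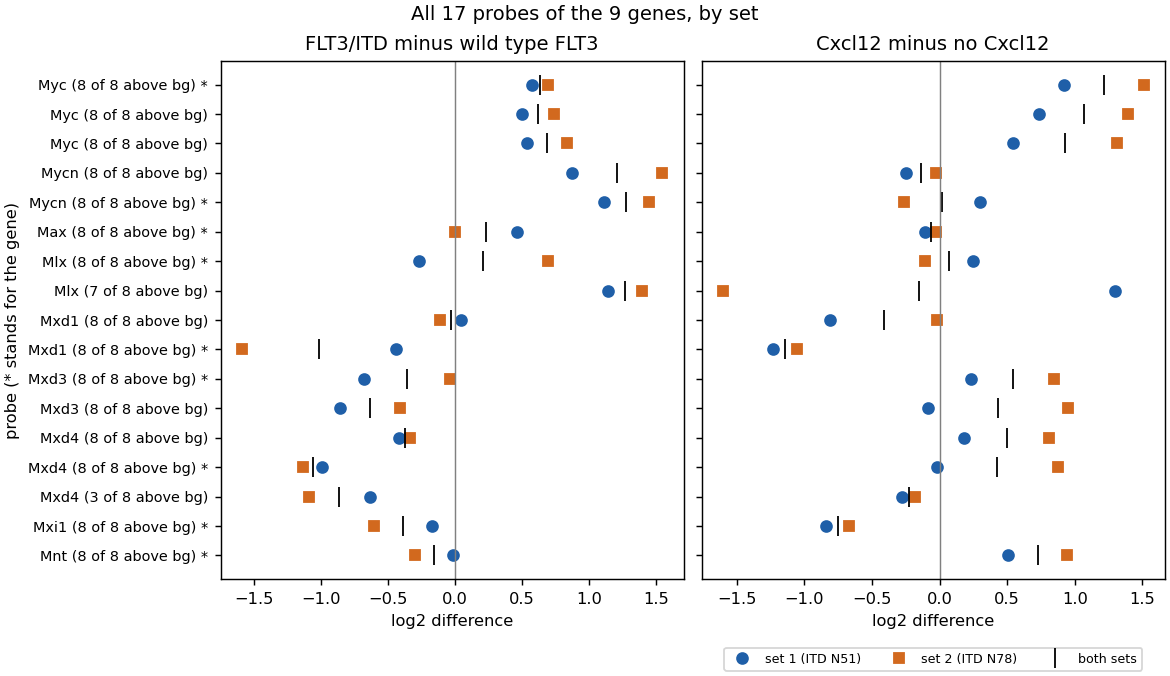
Log2 differences of all 17 probes with ITD (left) and with Cxcl12 (right), in set 1 (circles), set 2 (squares) and both together (bars); the label gives on how many of 8 arrays a probe was well above background. The 3 Myc probes lie between 0.93 and 1.22 with Cxcl12, the 2 Mycn probes at 1.21 and 1.28 with ITD, and the 2 Mxd1 probes at -1.02 and -0.03 with ITD.

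Across the 8 arrays, after each slide's mean was taken from each gene, Myc ran opposite to Mxi1 (Pearson r = -0.93) and Mxd1 (r = -0.89), and Mxd1 ran with Mxi1 (r = 0.96). Not every MAX partner that lowers MYC targets ran opposite to Myc. Mnt (r = 0.74) and Mxd3 (r = 0.49) ran with Myc, and Mxd4 had an r of 0.002 with it. Mycn ran opposite to Mxd4 (r = -0.89). These values describe 8 arrays that share slides and the same 4 groups, so they are given with no p. By the same measure, among those of the 13848 fitted genes that have a name, the 5 most like Myc were Txnl4b (r = 0.995), Lcmt2 (0.984), Samd1 (0.983), Cldn19 (0.979) and Jrk (0.978). Those most like Mycn were Nat10 (0.997), Acsl5, Mettl22, Bdh2 and Cpne6. Those most like Mxd1 were Tut4 (0.986), Zswim6, Spty2d1, Ttc41 and Zfp458, and those most like Mxd4 were Nfatc1 (0.986), Sesn3, Ostm1, Zfp362 and Ift74.

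Of the genes that MYC is known to induce, many rose in FLT3/ITD cells. The list was chosen with earlier results of these data known, so its counts describe the list and are no independent support. All 44 listed genes were measured, and in the average ITD effect 15 rose and 0 fell, where 3.57% of all genes rose and 2.57% fell. The difference was above 0 for 43 of the 44, against 48.9% of all genes, and the median was 0.61 (0.43 in set 1 and 0.73 in set 2), against -0.01 over all genes. With Cxcl12 only Ppan rose, where 0.152% of all genes rose. There 34 of the 44 differences were above 0, against 51.1% of all genes, and the median was 0.17 (0.36 in set 1 and -0.03 in set 2), against 0.01 over all genes. The count of 15 fell to between 0 and 4 when 1 of 5 arrays was left out: 0 without wild type FLT3+Cxcl12 replicate 2, 1 without FLT3/ITD replicate 2, 3 without wild type FLT3+Cxcl12 replicate 1 or wild type FLT3 replicate 2, and 4 without FLT3/ITD+Cxcl12 replicate 1.

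Srm, spermidine synthase of the polyamine pathway, had levels of 4.30 and 4.41 in FLT3/ITD cells with Cxcl12, against 2.03 and 2.91 in wild type FLT3 cells with Cxcl12 (set 1 and set 2). Without Cxcl12 they were 2.77 and 4.75 in FLT3/ITD cells, against 1.41 and 3.15 in wild type FLT3 cells. It rose by 1.68 (SE 0.28, limma adjusted p = 0.0139), with 1.82 in set 1 and 1.55 in set 2. Other risers act in the nucleolus, where ribosomes are built. Mybbp1a, a nucleolar MYB-binding protein, rose by 1.41 (SE 0.21, adjusted p = 0.00855). Nolc1, a nucleolar phosphoprotein, rose by 1.24 (adjusted p = 0.0125) and Gnl3, nucleostemin, by 1.09 (adjusted p = 0.0380; 0.55 in set 1 and 1.64 in set 2). Polr1b, the second largest subunit of RNA polymerase I, rose by 0.94 (adjusted p = 0.0268), and Nop2, an rRNA methyltransferase, by 0.93 (adjusted p = 0.0354). The polyamine enzyme Odc1 differed by 0.52 (adjusted p = 0.105) and the pyrimidine enzyme Cad by 0.53 (adjusted p = 0.0990), and neither passed.

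Ppan, a factor for the large ribosomal subunit, had levels of 5.13 and 4.73 in FLT3/ITD cells with Cxcl12, against 3.34 and 3.84 in FLT3/ITD cells without it (set 1 and set 2). In wild type FLT3 cells it had 4.14 and 4.22 with Cxcl12, against 3.35 and 3.34 without it. It rose with Cxcl12 by 1.09 (SE 0.17, limma adjusted p = 0.0430), with 1.29 in set 1 and 0.89 in set 2. Odc1 differed by 0.20 with Cxcl12 (adjusted p = 0.644) and Srm by 0.39 (adjusted p = 0.569; 1.07 in set 1 and -0.29 in set 2).

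**Figure D4:**
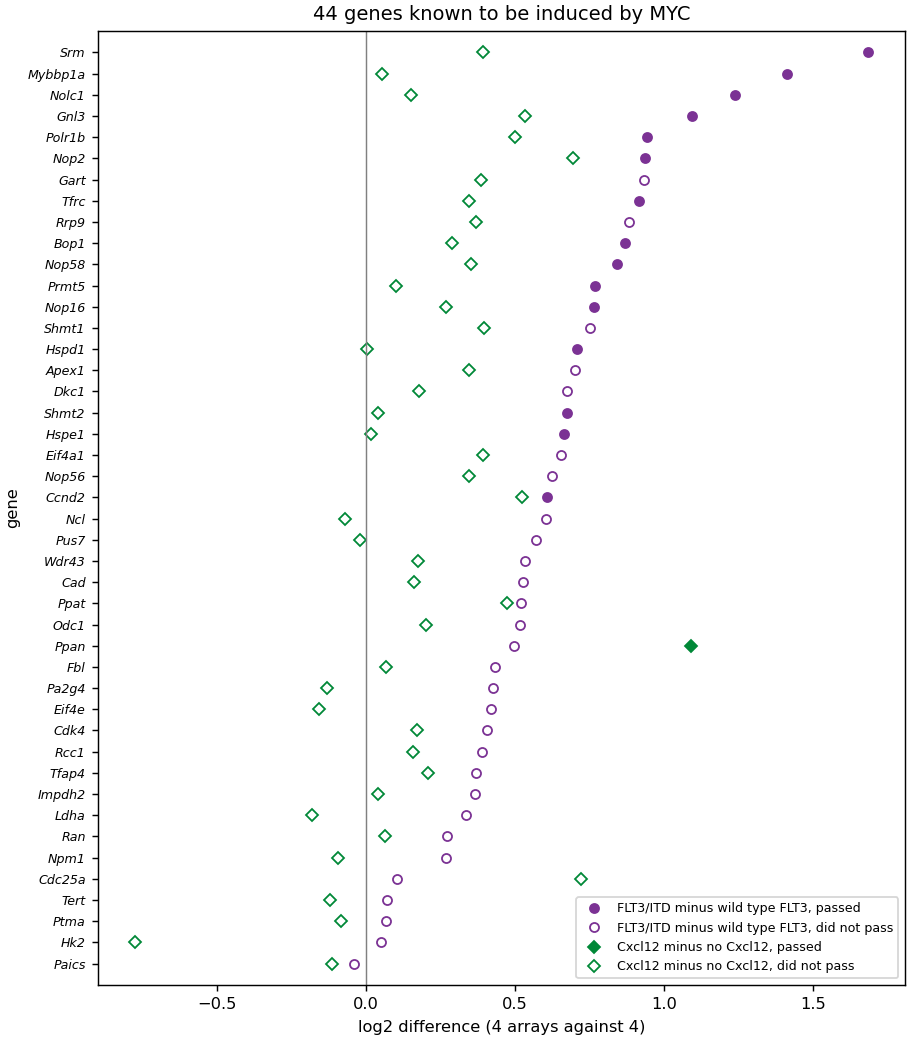
Log2 differences of the 44 MYC-induced genes with ITD (circles) and with Cxcl12 (diamonds), ordered by the ITD difference; filled points passed the test. With ITD 43 of 44 lie above 0 and 15 passed, and with Cxcl12 34 lie above 0 and Ppan passed. The list was chosen with earlier results of these data known.

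Of 11 genes that MYC is known to lower, 6 were measured. In the average ITD effect 1 of 6 fell, where 2.57% of all genes fell, and 0 rose. The median of the 6 was -0.02 and 3 were above 0. Cdkn2c, a CDK4 and CDK6 inhibitor, had levels of 2.66 and 1.69 in FLT3/ITD cells with Cxcl12, against 3.80 and 3.19 in wild type FLT3 cells with Cxcl12 (set 1 and set 2), and 3.17 and 1.73 against 3.83 and 2.47 without it. It fell by 1.01 (SE 0.18, limma adjusted p = 0.0168). With Cxcl12 1 of 6 fell, where 0.231% of all genes fell, and the median was -0.74. Ndrg1, a stress and differentiation gene, had levels of 4.40 and 0.78 in FLT3/ITD cells with Cxcl12, against 5.99 and 2.1 without it, and 3.55 and 0.54 in wild type FLT3 cells with Cxcl12, against 5.09 and 2.37 without it. It fell with Cxcl12 by 1.57 (SE 0.21, adjusted p = 0.0300), with -1.57 in set 1 and -1.58 in set 2.

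The CDK inhibitors Cdkn1a and Cdkn1b did not pass. Their Cxcl12 differences were -0.82 (limma adjusted p = 0.0672) and -0.97 (adjusted p = 0.146), and their ITD differences 0.27 (adjusted p = 0.313) and -0.57 (adjusted p = 0.214). The summed level of 6 neutrophil markers, 5 of which have probes, was lower with ITD and with Cxcl12. It was 2.12 to 3.60 in FLT3/ITD cells with Cxcl12 and 6.64 to 8.78 without, and 28.4 to 43.5 in wild type FLT3 cells with Cxcl12 and 52.4 to 76.3 without. On no array did Elane, Ltf or Camp pass the background test, and only Mpo and Ctsg were measured. Of these 2, 1 passed as lower with ITD, where 2.57% of all genes did. With Cxcl12 0 of 2 passed, where 0.383% of all genes did. In set 2 Mpo was higher in FLT3/ITD cells than in wild type FLT3 cells, at 0.87 against -0.23 with Cxcl12 and 2.95 against 2.88 without it. Of 6 monocyte and macrophage markers 5 were measured. With ITD 1 of these passed as higher, where 3.57% of all genes did, and 0 as lower, and their median difference was -0.27. The part of these markers in the results was not tested.

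Of 18 cofactors of MYC and MXD proteins, all measured, Ruvbl2, an ATPase of chromatin remodelling complexes, was the single one to pass with ITD, a share of the list near the 6.14% of all genes that passed. It rose in FLT3/ITD cells by 0.66 (SE 0.14, limma adjusted p = 0.0326), with 0.56 in set 1 and 0.77 in set 2. Its partner Ruvbl1 differed by 0.42 (adjusted p = 0.134) and the scaffold Trrap by -0.66 (adjusted p = 0.161). The median of the 18 was 0.03 with ITD and 0.03 with Cxcl12, and by limma 0 of 18 passed with Cxcl12. With ITD 7 of 18 had an unadjusted p under 0.05, as did 26.2% of all genes, and with Cxcl12 2 of 18, as did 14.8% of all genes. Of 13 genes that act on MYC protein turnover, limma passed 0 with ITD and 0 with Cxcl12, each with 1 at an unadjusted p under 0.05. Of Mycl, Mga, Mlxip, Mlxipl and the Mlx targets Txnip and Arrdc4, 3 were measured (Mga, Mlxip and Txnip), and limma passed 0 with ITD (0 at an unadjusted p under 0.05) and 0 with Cxcl12 (2 at an unadjusted p under 0.05).

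The E-box CACGTG, which reads the same on both strands, was looked for in the RefSeq windows of 300 bases around gene starts (250 before and 50 after, GRCm38.p6). Of all 32851 windows 7.15% hold it, and 8.09% of all 27025 genes have a window with it. Of the 9 members 8 have a window in the table, and 4 of these hold the motif: Max, Mlx, Mnt and Mxd4. Of the MYC-induced genes 38 of 44 have a window, and 13 of the 38 hold it (34.2%). Among those that rose in FLT3/ITD cells it was 3 of 12 genes, and among those that did not pass 10 of 26. The windows below are of Mxd4, the member that passed with ITD and holds the motif, and of the 3 risen genes that hold it, with the motif in capitals.
Mxd4, chr5:34187661-34187960, minus strand: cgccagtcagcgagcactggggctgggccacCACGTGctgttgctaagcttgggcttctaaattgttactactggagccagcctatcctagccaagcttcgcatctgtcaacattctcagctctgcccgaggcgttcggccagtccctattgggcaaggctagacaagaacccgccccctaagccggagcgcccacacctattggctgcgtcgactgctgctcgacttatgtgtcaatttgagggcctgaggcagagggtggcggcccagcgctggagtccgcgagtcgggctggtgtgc
Mybbp1a, chr11:72441077-72441376, plus strand: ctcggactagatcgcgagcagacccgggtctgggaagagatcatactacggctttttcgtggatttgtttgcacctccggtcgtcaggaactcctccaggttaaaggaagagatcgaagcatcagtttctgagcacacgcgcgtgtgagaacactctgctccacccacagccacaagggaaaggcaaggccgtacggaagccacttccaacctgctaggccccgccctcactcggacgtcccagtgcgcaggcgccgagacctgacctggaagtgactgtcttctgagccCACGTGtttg
Nop2, chr6:125131633-125131932, plus strand: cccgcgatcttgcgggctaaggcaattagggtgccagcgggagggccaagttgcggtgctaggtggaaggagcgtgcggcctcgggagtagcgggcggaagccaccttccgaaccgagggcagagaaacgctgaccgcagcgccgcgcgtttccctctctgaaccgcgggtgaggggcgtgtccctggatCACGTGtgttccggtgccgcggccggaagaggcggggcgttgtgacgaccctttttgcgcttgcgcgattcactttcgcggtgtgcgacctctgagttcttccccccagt
Hspd1, chr1:55088194-55088493, minus strand: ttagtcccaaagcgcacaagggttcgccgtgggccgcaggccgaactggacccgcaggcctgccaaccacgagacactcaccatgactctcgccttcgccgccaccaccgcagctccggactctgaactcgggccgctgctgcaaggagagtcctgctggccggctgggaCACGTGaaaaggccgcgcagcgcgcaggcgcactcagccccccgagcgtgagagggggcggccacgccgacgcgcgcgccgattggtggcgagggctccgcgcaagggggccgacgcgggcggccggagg
The motif begins at position -219 from the start in Mxd4, at -60 in Nop2, at -80 in Hspd1 and at 40 in Mybbp1a. Hspd1, a mitochondrial chaperone, was one of the 15 that rose, and a second Hspd1 window in the table does not hold the motif. A match of 6 letters describes these windows, and binding was not measured in the data used here.

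All calls above rest on the slide as a block in the fit. Without it, limma passed 0 of 9 members and 0 of 13848 genes in each comparison (719 genes at an unadjusted p under 0.05 in the average ITD effect and 311 in the average Cxcl12 effect), and the adjusted p of Mycn with ITD was 0.839. The N51 and N78 lines each have 1 array with and 1 without Cxcl12, both on the line's own slide. The spread between repeats of a line was therefore not measured. The difference between the lines cannot be told apart from that between the slides.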

How the data were processed

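RNA of 8 samples of Ba/F3 cells was hybridised to 1-colour (Cy3) Agilent arrays. Per the file headers, the deposited intensities had been background-subtracted by Agilent Feature Extraction (9.5.1.1 for set 1, 10.7.3.1 for set 2) and not yet scaled to one another. The authors' normalized tables hold deposited intensities that lay within 0.01 log2 of the median-scaled array for 99.7 to 99.9% of probes. Flag columns (other units) in the deposited files marked background and outliers.

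Here log2 was taken and each array's 75th percentile subtracted. Control and outlier spots were left out, spots of a probe averaged, and a probe was kept if any group had it well above background on both its arrays. No spot was saturated, and the number of arrays limits the precision. The brightest kept probe stood for a gene (13848 genes). Probes were named by accession (27198), symbol (5585), synonym (719) or the file's name (1374), and 6298 were unnamed.

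limma 3.58.1 (R 4.3.3, data.table version 1.17.8) fitted 4 group means and the slide as block, with an intensity trend, leaving 3 residual degrees of freedom, in 7 comparisons. The slide in the headers gives the pairing: deviations from group means correlated at 0.73 to 0.88 within a slide. The fit was first tested on simulated data.

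Members and gene lists were chosen with earlier results of these data known. Named were all members, up to 6 passing genes per list and average effect, up to 2 of a list's genes that did not pass, and the 5 genes most like each member that passed. Other genes are named as members of a list or for the motif. Probe coordinates are the set 2 files' (mm9). The Flt3 probe was not used to check the labels. Alternatives were normexp background correction (offset 50), quantile normalization, no filter, a stricter filter, every probe, the mean of probes, no block, the authors' tables, no trend and each array left out.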

Additional observations from a re-analysis of the deposited data

Results flagged for a closer look

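Several probes had differences of opposite sign in the 2 sets, each set holding 1 array per group and its own kind of ITD (N51 in set 1, N78 in set 2). In these cases both differences within set 1 had one sign and both within set 2 the other, and the difference between the sets was not tested. The brighter Mycn probe differed with Cxcl12 by 0.30 in set 1 and -0.26 in set 2. The dimmer Mxd3 probe differed with Cxcl12 by -0.084 in set 1 and 0.95 in set 2. The brighter Mlx probe differed with ITD by -0.27 in set 1 and 0.69 in set 2, and with Cxcl12 by 0.24 in set 1 and -0.11 in set 2. The dimmer Mlx probe, above background on 7 of 8 arrays, differed with Cxcl12 by 1.30 in set 1 and -1.60 in set 2.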

How the results depend on the processing

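The average ITD count of 3 members was 1 with normexp background correction, with no filter on dim probes and with no intensity trend, and 0 with no replicate block. The count lost Mxd1 with quantile normalization and with the mean of a gene's probes, and gained Myc with the authors' tables. Leaving out 1 array gave 1 to 3. The count of 1 for ITD with Cxcl12 was 0 with normexp, quantile normalization, no filter, the mean of a gene's probes, no replicate block and no trend, and 0 to 1 with 1 array left out. The count of 0 for ITD without Cxcl12 was 1 with the authors' tables. In the average Cxcl12 effect normexp passed Mxd1 in place of Myc. The average Cxcl12 count of 1 was 0 with no filter, the mean of probes, no replicate block and no trend, 2 (Myc and Mxd1) with the authors' tables, and 0 to 1 with 1 array left out. The MYC-induced count of 15 with ITD was 7 with normexp, 2 with no filter, 3 with no trend, 0 with no replicate block and 0 to 19 with 1 array left out. The count of 1 with Cxcl12 was 0 with normexp, no filter, no trend and no replicate block, and 0 to 1 with 1 array left out.

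Small values of members that had not passed changed sign. Mycn with Cxcl12 was -0.22 with normexp, -0.031 with quantile normalization and -0.058 with the mean of probes, and -0.14 to 0.18 with 1 array left out. Mnt with ITD was 0.23 with normexp and -0.36 to 0.046 with 1 array left out. Mlx with Cxcl12 was -0.043 with the mean of probes and -0.16 to 0.30 with 1 array left out. Mlx with ITD was -0.018 to 0.44, and Max with Cxcl12 -0.24 to 0.11, with 1 array left out. With normexp Odc1 was -0.18 and Srm -0.015 with Cxcl12. Mycn with ITD passed under 8 of the 9 other settings and 8 of 8 fits with 1 array left out. Without the filter 27405 genes were tested, and leaving out an array removes a sample. The cause of the other changes was not tested. Of 8 fits with 1 array left out, the call of Mybbp1a held in 7, of Nolc1 and Cdkn2c in 6, of Srm in 5, of Gnl3, Polr1b and Ndrg1 in 3, of Nop2 and Ruvbl2 in 2 and of Ppan in 1.

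Over all genes the 850 ITD calls were 360 with normexp, 184 with no filter, 450 with no trend, 0 with no block and 155 to 942 with 1 array left out. The 53 Cxcl12 calls were 85, 0, 6, 0 and 0 to 208 in the same order, 31 with quantile normalization, 93 with probes above background on all 8 arrays and 153 with the authors' tables. The authors' tables moved the share of higher ITD calls to 75.8%, against 58.1%, and the median ITD difference of all genes to 0.12, against -0.01.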
